A study of Mus musculus with 8 samples.

Results

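Transcripts of 10 cardiac muscle genes were followed in cultured embryonic mouse lungs: Actc1, Myl4, Myl7, Myh6, Myh7, Tnnt2, Tnni3, Ryr2, Nppa and Nkx2-5. They were picked by name as genes of the heart muscle cell, and each was read from its brightest spot, the one of highest mean signal over the arrays, among 24304 genes measured in that way. The lungs came from C57bl/6J embryos at E12.5 and were kept whole on filters in medium with serum, with IQ1 at 10 µM or with vehicle, and RNA was taken from the homogenized organ. At 9 h there were 3 arrays with IQ1 and 3 control arrays, which the series calls biological replicates, and at 24 h each condition had 1 array, made from pooled lungs. IQ1 is a small molecule used to keep β-catenin from working with its coactivator EP300. The labels name PBS as the vehicle, whereas the methods dissolve IQ1 in DMSO and give controls PBS or DMSO, so that a solvent effect cannot be told apart from IQ1 where the solvents differed. The sample descriptions call the controls untreated and the IQ1 lungs a case of FGFR2b inhibition, and the groups used here follow the treatment label.

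Heart muscle contracts through sarcomeres, in which myosin heavy chains with their light chains pull on cardiac actin, and the troponins on the actin filament make that pull depend on calcium released through the ryanodine receptor. In the mouse, a sleeve of atrial-like heart muscle also surrounds the pulmonary veins and reaches into the lung, and the atria lie next to the lung when it is dissected from the embryo. Several of these genes are not restricted to the heart: cardiac actin and the embryonic light chain Myl4 are also made in embryonic skeletal muscle, and cardiac actin in developing smooth muscle. The question put to the arrays was whether the 10 genes moved together over the arrays or differed one by one between IQ1 and control lungs.

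The values are log2 intensities, brought by the authors to the same distribution on every array, whose median over the spots was 6.29 and whose lower quartile was 4.34. A difference of 1 on this scale is a doubling of the signal relative to the rest of the array, and levels of different genes are not compared because each spot binds its target differently. Control replicate 2 at 9 h stood apart: it correlated with the other arrays at 0.583 to 0.602, while the other 7 arrays correlated with each other at 0.953 to 0.982. On this array 7 of the 20 spots of the 10 genes were above all 7 other arrays and 7 were below all of them, against 31.2% and 47.4% of the 43933 named spots. The differences at 9 h are therefore given for all 6 arrays and for the 5 arrays without control replicate 2, except for the dimmer spots of the 10 genes, where most values are for 5 arrays, and any ordering over arrays uses the 7 arrays without it. The paper's own array comparison of IQ1 and control at 9 h gives n = 2 for the controls and does not say which arrays these were. In RNA from a whole organ, fewer cells of a type and less RNA per cell cannot be told apart.

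The promoters of Actc1, Myl7 and Nppa are shown because these genes stand for the patterns described below: a gene higher with IQ1 at both times, a gene whose IQ1 and control levels overlapped, and a gene lower with IQ1 at 9 h on the 5 arrays. All 10 genes had at least 1 window in the RefSeq table of mouse build GRCm38.p6, and each sequence is the 250 bases before the annotated start, written 5′ to 3′ on the strand of the gene. Capitals mark matches on either strand to the CArG box, to GATAA, the core bound by GATA factors, or to TNAAGTG, the element bound by Nkx2-5.
Actc1, chr2:114052876-114053125, minus strand: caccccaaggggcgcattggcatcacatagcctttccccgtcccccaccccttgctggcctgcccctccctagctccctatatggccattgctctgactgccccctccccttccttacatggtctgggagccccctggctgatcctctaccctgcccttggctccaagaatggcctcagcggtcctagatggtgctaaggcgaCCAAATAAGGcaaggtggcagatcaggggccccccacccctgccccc
Myl7, chr11:5898783-5899032, minus strand: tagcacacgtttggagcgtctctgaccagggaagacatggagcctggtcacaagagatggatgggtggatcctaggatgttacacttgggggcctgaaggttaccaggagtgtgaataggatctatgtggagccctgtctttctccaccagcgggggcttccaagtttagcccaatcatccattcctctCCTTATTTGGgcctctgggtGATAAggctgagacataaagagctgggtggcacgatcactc
Nppa, chr4:148000472-148000721, plus strand: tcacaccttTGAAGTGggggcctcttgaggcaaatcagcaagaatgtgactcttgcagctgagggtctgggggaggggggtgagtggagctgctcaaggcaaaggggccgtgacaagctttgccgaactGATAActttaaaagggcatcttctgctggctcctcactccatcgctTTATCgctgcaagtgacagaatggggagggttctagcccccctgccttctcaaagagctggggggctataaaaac
The CArG box is the element bound by serum response factor, the partner of myocardin in muscle cells, and it was found in 1.47% of the 32851 windows of the table. Among the 10 genes it was found at Actc1, 47 to 38 bases before the start, and at Myl7, 61 to 52 bases before it. TNAAGTG was found in 10.1% of all windows and, among these genes, at Nppa and Myh7. GATAA was found in 22.6% of all windows and, among these genes, at Myl7, Nppa and Tnnt2. The MEF2 site, found in 0.508% of all windows, was found at none of the 10 genes in this window.

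At 9 h, none of the 10 genes passed limma's test with adjustment over all genes, with 6 or with 5 arrays. With 6 arrays 0.0% of all genes passed in each direction, and with 5 arrays 0.0% passed as higher and 0.0123% as lower with IQ1. The adjusted p of the 10 genes ran from 0.730 to 0.899 with 6 arrays and from 0.434 to 0.988 with 5 arrays. In both fits 7 of the 10 genes were higher with IQ1, against 57.2% of all genes with 6 arrays and 51.6% with 5 arrays, and 3 were lower, against 42.8% and 48.4%. Only 4 genes were higher in both fits: Actc1, Myl4, Ryr2 and Nkx2-5. The other 6 genes had opposite signs in the fits, so their direction at 9 h depended on control replicate 2. That of Tnnt2 also depended on IQ1 replicate 2, without which its difference was 0.16. The median difference of the 10 genes was 0.52 with 6 arrays and 0.41 with 5, beside 0.16 and 0.01 for all genes.

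**Figure D1:**
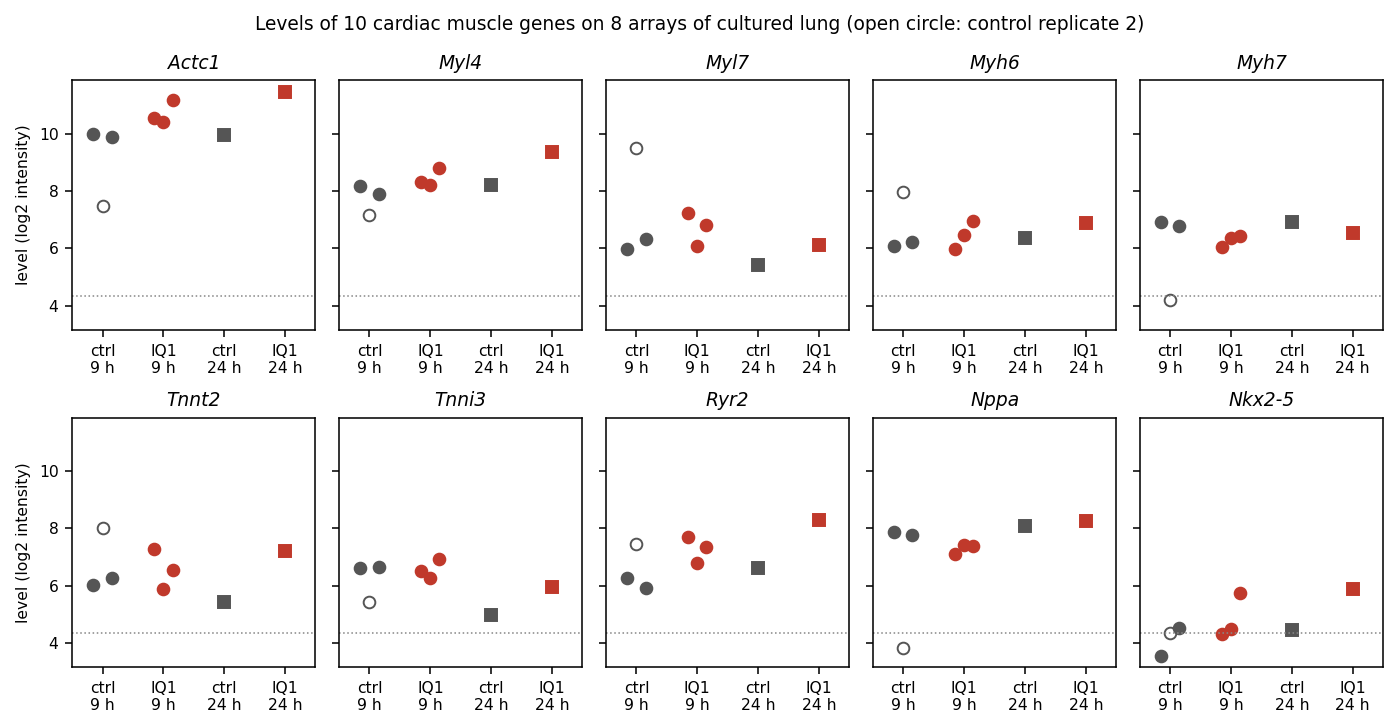
Levels of the 10 genes on each array, as log2 intensity on the vertical axis, by treatment and time on the horizontal axis (gray, control; red, IQ1; circles, single arrays at 9 h; squares, pooled lungs at 24 h; open circle, control replicate 2; dotted line, the lower quartile of all spots at 4.34). The IQ1 array at 24 h was the highest of the 7 arrays without control replicate 2 for Actc1, Myl4, Ryr2, Nppa and Nkx2-5, whereas control replicate 2 lay far from the other controls, above them for Myl7 and below them for Nppa.

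Actc1, the actin of the cardiac thin filament, was higher with IQ1 at both times. Its level was 9.98, 7.49 and 9.87 on control arrays 1, 2 and 3 at 9 h, and 10.56, 10.41 and 11.18 on the IQ1 arrays. At 24 h it was 9.96 in the control lungs and 11.47 in the IQ1 lungs. Every IQ1 array was above every control array of its time, and the control level at 24 h was within the range of control arrays 1 and 3, which differed from each other by 0.11. The difference at 9 h was 1.60 (SE 0.75) with 6 arrays, where control replicate 2 was the lowest array, and 0.79 (SE 0.30, 95% interval 0.07 to 1.51) with 5 arrays. The limma adjusted p was 0.730 and 0.556, respectively, and the difference at 24 h was 1.51.

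Myl4, the light chain of atrial and embryonic muscle myosin, was ordered in the same manner over smaller distances. It measured 8.18, 7.16 and 7.89 on the control arrays and 8.31, 8.21 and 8.81 on the IQ1 arrays at 9 h, then 8.20 in control and 9.37 in IQ1 lungs at 24 h. The groups did not overlap at 9 h, although IQ1 replicate 2 was only just above control replicate 1. The difference was 0.70 (SE 0.44) with 6 arrays and 0.41 (SE 0.27) with 5 arrays (limma adjusted p = 0.771), against 1.17 at 24 h. Actc1 and Myl4 were the 2 genes of the 10 with all IQ1 arrays above all 3 controls, an arrangement that 8.33% of all genes showed, and none of the 10 had all IQ1 arrays below all 3 controls, as 5.25% of all genes did.

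Ryr2, the channel through which the cardiac sarcoplasmic reticulum releases calcium, had the largest 5-array difference among the 10 genes. The control arrays read 6.26, 7.47 and 5.94 and the IQ1 arrays 7.70, 6.79 and 7.35 at 9 h. At 24 h the level was 6.61 in control and 8.29 in IQ1 lungs, a difference of 1.69. The groups overlapped at 9 h only through control replicate 2, which was above 2 of the IQ1 arrays. The difference was 0.72 (SE 0.54) with 6 arrays and 1.18 (SE 0.33, 95% interval 0.39 to 1.97) with 5 arrays, where the unadjusted p was 0.0107 and the limma adjusted p 0.434. Actc1 and Ryr2 were the genes of the 10 with an unadjusted limma p under 0.05 and a higher level with IQ1 in the 5-array fit, which 4.24% of all genes showed, and Myh7 was the only one of them lower with such a p, as were 4.14% of all genes. With 6 arrays none of the 10 had an unadjusted p under 0.05, against 1.13% of all genes as higher and 0.889% as lower.

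Myh7 and Nppa had the opposite arrangement on the 5 arrays. Myh7, the slow heavy chain that the fetal ventricle uses, measured 6.92, 4.20 and 6.77 on the control arrays and 6.06, 6.35 and 6.42 on the IQ1 arrays at 9 h. All IQ1 arrays were between the low control replicate 2 and the other controls, so the difference was 0.32 with 6 arrays and -0.57 (SE 0.23, limma unadjusted p = 0.0472, adjusted p = 0.591) with 5 arrays. At 24 h it was 6.92 in control and 6.53 in IQ1 lungs, and Myh7 was the only one of the 10 genes that was lower with IQ1 at that time, by a difference of -0.40.

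Nppa encodes atrial natriuretic peptide, a hormone of the atrial wall that is also made in the embryonic ventricle. The control arrays read 7.87, 3.82 and 7.76 and the IQ1 arrays 7.13, 7.44 and 7.39 at 9 h, and control replicate 2 was under the lower quartile of the spots. The difference was 0.83 with 6 arrays and -0.50 (SE 0.22) with 5 arrays, with a limma adjusted p of 0.628 in the latter. At 24 h the level was 8.08 in control and 8.24 in IQ1 lungs. With 5 arrays, Actc1, Myl4 and Ryr2 had every IQ1 array above both controls and Myh7 and Nppa had every IQ1 array below both, and each of these arrangements was found in 13.1% of all genes.

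**Figure D2:**
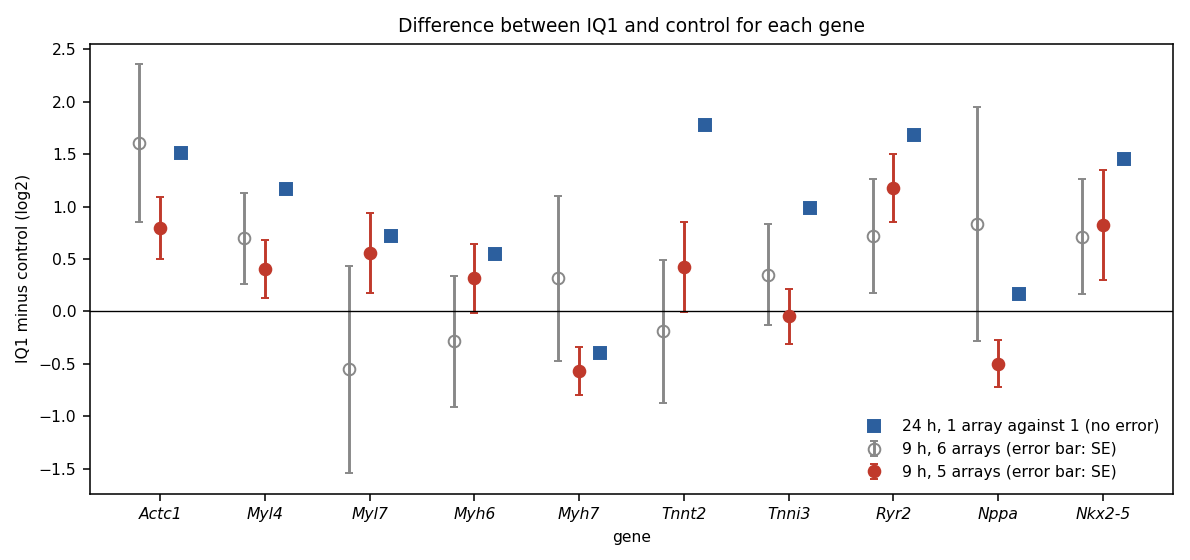
Difference between IQ1 and control for each gene on the log2 scale (gray open circles, 6 arrays at 9 h; red circles, 5 arrays at 9 h without control replicate 2; blue squares, 24 h with 1 array against 1; error bars, SE from limma, none at 24 h). Actc1, Myl4, Ryr2 and Nkx2-5 were above 0 in all 3 comparisons, and the 6-array and 5-array values lay on opposite sides of 0 for the other 6 genes.

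The remaining heavy and light chains overlapped between treatments at 9 h. Myl7, the regulatory light chain of the atrium, read 5.97, 9.49 and 6.35 on the control arrays and 7.24, 6.07 and 6.83 on the IQ1 arrays, then 5.41 in control and 6.13 in IQ1 lungs at 24 h. Its difference was -0.55 (SE 0.99) with 6 arrays and 0.56 (SE 0.38) with 5 arrays. Myh6, the fast heavy chain of the atrium and of the adult mouse ventricle, read 6.08, 7.95 and 6.24 on the control arrays and 5.98, 6.47 and 6.96 on the IQ1 arrays, then 6.36 and 6.90 at 24 h. IQ1 replicate 1 was the highest of the 7 arrays for Myl7 and the lowest for Myh6, so the atrial chains did not keep 1 order among the IQ1 arrays. The Myh6 difference was -0.28 with 6 arrays and 0.31 (SE 0.33) with 5 arrays.

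Among the 7 arrays, the troponins Tnnt2 and Tnni3 and the light chain Myl7 were lowest in the control lungs at 24 h, where 16.5% of all genes had their lowest level. Tnnt2, the subunit that anchors the troponin complex to tropomyosin, read 6.03, 8.0 and 6.28 on the control arrays and 7.30, 5.88 and 6.55 on the IQ1 arrays at 9 h, and 5.45 in control against 7.22 in IQ1 lungs at 24 h. Its difference of 1.77 was the largest of the 10 genes at 24 h, whereas at 9 h it was -0.19 with 6 arrays and 0.42 (SE 0.43) with 5 arrays. Tnni3, the inhibitory subunit that is specific to heart muscle, read 6.60, 5.43 and 6.64 on the control arrays and 6.53, 6.27 and 6.92 on the IQ1 arrays at 9 h. At 24 h it read 4.98 in control and 5.97 in IQ1 lungs, both below its 9 h level on the arrays other than control replicate 2. The control difference between 24 h and 9 h, taken from control replicates 1 and 3, was -1.65 for Tnni3, -0.71 for Tnnt2 and -0.75 for Myl7, and with IQ1 it was -0.61, 0.64 and -0.58. Tnnc1, the calcium-binding subunit, is not one of the 10 genes and was chosen after its values were seen: it read 5.37 in control and 6.35 in IQ1 lungs at 24 h, against 6.47 to 7.0 on the 5 arrays at 9 h, with a 9 h difference of -1.40 with 6 arrays and -0.09 with 5. Tnni1, a further troponin subunit chosen in the same way, did not follow this course. It read 11.29 in control and 11.09 in IQ1 lungs at 24 h, against 10.69 to 11.73 on the 5 arrays at 9 h, and was lowest on IQ1 replicate 1. Since each 24 h sample was a single pool from a separate experiment, the time point cannot be told apart from the pool or the experiment.

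Nkx2-5, the homeodomain factor that marks cardiac precursors, was close to the low end of the scale. It read 3.55, 4.37 and 4.51 on the control arrays and 4.32, 4.50 and 5.76 on the IQ1 arrays at 9 h, then 4.45 in control and 5.90 in IQ1 lungs at 24 h. On 2 of the 7 arrays it was below the lower quartile of all spots, and its highest readings were those of IQ1 replicate 3 and the IQ1 lungs at 24 h. The difference was 0.71 with 6 arrays and 0.83 (SE 0.52, limma adjusted p = 0.749) with 5 arrays.

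At 24 h, 9 of the 10 genes were higher in IQ1 than in control lungs, against 51.4% of all genes, with Myh7 the exception. A difference above 1 was found for 5 of them (Tnnt2, Ryr2, Actc1, Nkx2-5 and Myl4), against 5.64% of all genes, and none was below -1, against 4.97%. The median difference was 1.08 for the 10 genes and 0.02 for all genes. There was 1 array of pooled lungs for each condition, so these values have no replicate error and were not tested. Of the 5 genes with non-overlapping levels at 9 h on the 5 arrays, Actc1, Myl4, Ryr2 and Myh7 had the same sign at 24 h and Nppa did not. Levels above both controls at 9 h on the 5 arrays together with a higher level at 24 h, as in Actc1, Myl4 and Ryr2, were found in 8.74% of all genes.

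The 10 genes did not follow a common course over the 7 arrays. The correlation of each gene with the mean of the other 9 was 0.952 for Actc1, 0.877 for Myl4, 0.778 for Nkx2-5, 0.770 for Ryr2, 0.717 for Tnnt2 and 0.663 for Myh6. It was 0.369 for Myl7 and 0.136 for Tnni3, and below 0 for Nppa with -0.125 and for Myh7 with -0.578. These are descriptions over 7 arrays that share treatments and times. The span from the lowest to the highest of the 7 arrays had a median of 1.71 for the 10 genes and 1.14 for all genes. The highest array was the IQ1 pool at 24 h for 5 genes (19.3% of all genes had their highest level there), IQ1 replicate 1 for Myl7 and Tnnt2 (21.4%), IQ1 replicate 3 for Myh6 and Tnni3 (11.5%) and the control pool at 24 h for Myh7 (14.8%).

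Other spots of the same genes gave a second reading for 7 of the 10 genes. The 3 Ryr2 spots were all higher with IQ1, by 1.18, 0.90 and 0.85 on the 5 arrays and by 1.69, 1.05 and 1.57 at 24 h. The second Ryr2 spot had every IQ1 array above all 3 controls at 9 h, with 4.93, 5.12 and 5.88 on the control arrays and 5.93, 6.51 and 6.48 on the IQ1 arrays. The 3 Myl4 spots also kept 1 direction, with 0.41, 0.55 and 0.42 on the 5 arrays. The third Myl4 spot, however, was below the lower quartile on all 7 arrays without control replicate 2, and the third Ryr2 spot on 4 of them. The second Nppa spot read 6.74, 8.07 and 6.66 on the control arrays and 5.28, 6.22 and 5.89 on the IQ1 arrays. There the IQ1 arrays were below all 3 controls, with a difference of -1.36 with 6 arrays and -0.90 (SE 0.32) with 5 arrays, and at 24 h the difference was -0.33, opposite in sign to the brightest spot.
The spots of the troponins did not keep 1 direction. Tnnt2 gave 0.42, -0.05 and 0.37 on the 5 arrays, and Tnni3 gave -0.05 and -0.50 there and 0.99 and -1.34 at 24 h. The second Myh7 spot was lower with IQ1 at 9 h, by a difference of -0.78, with a difference of 0.00 at 24 h. This spot was below the lower quartile on 6 of the 7 arrays without control replicate 2, and the second Tnni3 spot on 3 of them. The second Myh6 spot was below it on all 7, while control replicate 2 read 10.13. That spot differed by 0.63 on the 5 arrays and by -0.29 at 24 h, where the brightest Myh6 spot differed by 0.55. Over the 20 spots, 13 were higher and 7 lower with IQ1 on the 5 arrays, 16 were higher at 24 h, and none passed limma's test over the named spots (smallest adjusted p = 0.439 with 5 arrays). The spot sequences were not used here, and signal from related transcripts, such as other actins on the Actc1 spot or Myh6 and Myh7 on each other's spots, was not tested.

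**Figure D3:**
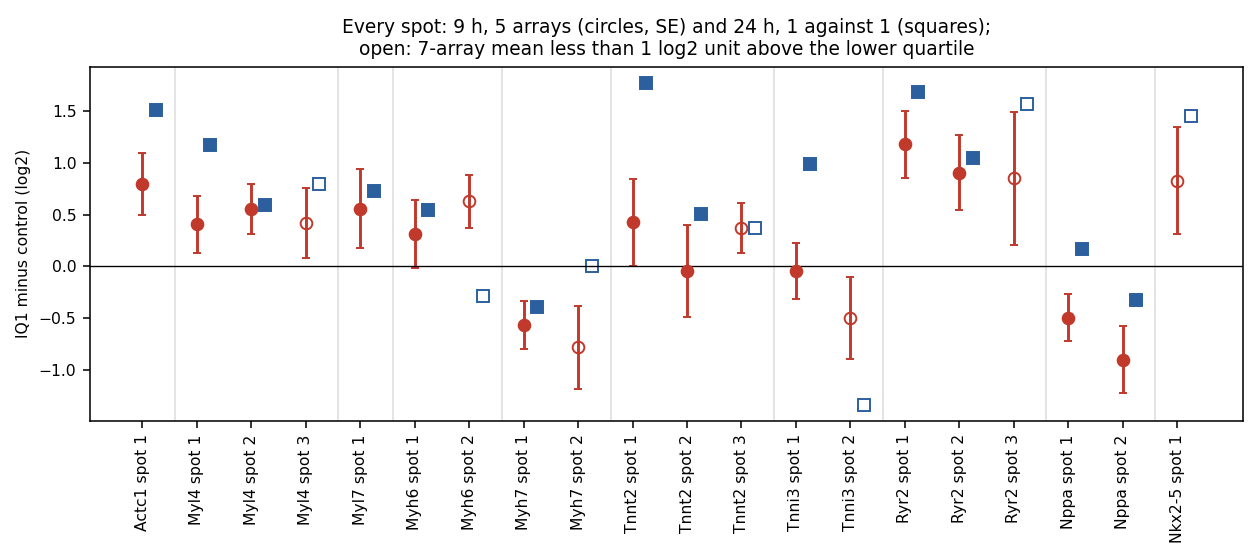
IQ1 minus control on the log2 scale for all 20 spots of the 10 genes, numbered from the brightest (red circles, 5 arrays at 9 h with SE from limma; blue squares, 24 h with 1 array against 1; open symbols, spots whose 7-array mean was less than 1 above the lower quartile of 4.34). The Ryr2 and Myl4 spots stayed above 0 at both times and both Nppa spots were below 0 at 9 h, whereas the Tnni3 and Tnnt2 spots spread to both sides.

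Other genes of the heart muscle cell lay on both sides of 0. The list of cardiac sarcomere and calcium handling genes also held Fabp3, which binds fatty acids, and the respiratory chain subunits Cox6a2 and Cox7a1. Of its 22 genes 9 were higher and 13 lower with IQ1 in both fits. Of all genes 57.2% were higher with 6 arrays and 51.6% with 5. The median difference of the list was -0.24 with 6 arrays and -0.10 with 5. With 5 arrays every IQ1 array was above both controls for 2 of the 22, Cox7a1 among them, and below both for 6. The share of all genes was 13.1% in each direction. With 6 arrays these counts were 1 and 2, against 8.33% and 5.25%. At 24 h 1 gene was above 1 and 2 were below -1, against 5.64% and 4.97% of all genes. Csrp3, a protein of the Z-disc, differed by -2.53 with 6 arrays, -1.30 with 5 arrays and -0.80 at 24 h, although it was below the lower quartile on 5 of the 7 arrays. Nebl, which encodes nebulette of the cardiac Z-disc, read 7.95, 9.86 and 7.74 on the control arrays and 6.70, 6.47 and 7.23 on the IQ1 arrays, so all IQ1 arrays were below all controls. Its difference was -1.72 with 6 arrays, -1.05 (SE 0.29, limma adjusted p = 0.437) with 5 arrays and -1.43 at 24 h, the opposite direction to Actc1. Pln, the inhibitor of the calcium pump of the sarcoplasmic reticulum, differed by 0.06 with 6 arrays, -0.56 with 5 arrays and -1.23 at 24 h. Actn2, the α-actinin of the Z-disc, was higher with IQ1 on the 5 arrays only. It differed by -0.02 with 6 arrays and 0.95 (SE 0.60, limma adjusted p = 0.749) with 5 arrays, where the groups overlapped, and by -0.37 at 24 h.

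Among markers of the heart chambers and of vein muscle, Myl2, Myl3 and Sln overlapped between treatments at 9 h, whereas Myh7b did not. Myl2, the ventricular regulatory light chain, read 5.27, 7.65 and 4.60 on the control arrays and 6.39, 5.09 and 5.30 on the IQ1 arrays, then 4.36 in control and 5.40 in IQ1 lungs at 24 h. Its difference at 9 h was -0.25 with 6 arrays and 0.65 with 5 arrays. Like Myl7 and Tnnt2, it was highest on IQ1 replicate 1 among the 7 arrays, as were 21.4% of all genes. Like them it was lowest in the control pool at 24 h, as were 16.5%. Myh6, Myh7, Nppa and Bmp10 were lowest on IQ1 replicate 1 among these arrays, and the share of all genes lowest there was not counted. Myl3, the ventricular essential light chain, stayed between 5.22 and 5.83 on the 7 arrays and differed by -1.11 with 6 arrays, where control replicate 2 read 8.68, and by -0.07 with 5 arrays. Myh7b, a further myosin heavy chain of heart and slow muscle, read 5.46, 7.27 and 5.21 on the control arrays and 4.19, 4.85 and 4.65 on the IQ1 arrays, with every IQ1 array below every control. Its difference was -1.41 with 6 arrays, -0.77 (SE 0.28, limma unadjusted p = 0.0311, adjusted p = 0.547) with 5 arrays and -0.02 at 24 h. Myh7b was below the lower quartile on 3 of the 7 arrays. Sln, the atrial regulator of the calcium pump, differed by 0.35 and 0.83 at 9 h and was below the lower quartile on 6 of the 7 arrays. Bmp10, a growth factor of the embryonic heart, ran from 10.13 to 11.64 on the 7 arrays, with both ends on IQ1 arrays, and differed by 0.47 with 6 arrays and 0.09 with 5 arrays. Tbx3, a factor of the conduction system, differed by 0.11 and -0.25, with every IQ1 array below both controls on the 5 arrays, and by -1.46 at 24 h. Of 6 ventricular genes 1 was higher in each fit, against 57.2% of all genes with 6 arrays and 51.6% with 5. Their median difference was -0.68 with 6 arrays, -0.06 with 5 arrays and 0.51 at 24 h. Of 7 measured genes of the atrium, pacemaker and pulmonary vein 5 were higher in each fit, beside the same shares, with medians of 0.35, 0.09 and 0.16. Nppb, which encodes a further natriuretic peptide, differed by -0.17, -0.05 and 0.70. On control replicate 2, Irx4, a ventricular factor, read 11.45 against 5.39 at most on the other arrays, and Shox2, a pacemaker factor, read 12.51 against 5.69 at most. The 9 h difference with 6 and with 5 arrays was -2.28 and -0.05 for Irx4, and -2.08 and 0.67 for Shox2.

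The list of 10 cardiac transcription factors also held Popdc2, a membrane protein, and Smyd1, a histone methyltransferase. Of this list 7 were higher with 6 arrays and 6 with 5 arrays, against 57.2% and 51.6% of all genes. The median differences were 0.52 and 0.42. At 24 h 4 of the list, Popdc2 among them, were above 1, against 5.64% of all genes. Gata4, a zinc finger factor of heart precursors that is also made in mesothelium, read 8.10, 4.09 and 8.25 on the control arrays and 10.21, 9.08 and 8.61 on the IQ1 arrays, then 7.01 and 9.10 at 24 h. Every IQ1 array was above every control at both times, with a difference of 2.48 with 6 arrays and 1.12 (SE 0.48, limma adjusted p = 0.604) with 5 arrays. The difference with 6 arrays, with 5 arrays and at 24 h was 0.90, 0.63 and 1.01 for Gata6, 1.06, 0.93 and 1.23 for Hand1 and 0.03, 0.72 and 1.80 for Popdc2, all with overlapping groups at 9 h. Popdc2 was below the lower quartile of the spots on 4 of the 7 arrays, and Hand1 on 2 of them. The highest array for Gata4 was IQ1 replicate 1. With 6 arrays, with 5 arrays and at 24 h, 6 of 7 genes of the mesothelium and epicardium were also higher with IQ1. Of all genes 57.2%, 51.6% and 51.4% were higher in these comparisons. The median difference of the mesothelial list was 1.40 with 6 arrays, 1.21 with 5 arrays and 1.496 at 24 h. Upk3b, a mesothelial surface protein, read 8.85, 5.98 and 8.91 on the control arrays and 11.39, 9.88 and 9.34 on the IQ1 arrays. The part of the mesothelium in the Gata4 difference was not tested.

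Smooth muscle genes were, like Actc1, mostly higher with IQ1. All 13 were higher on the 5 arrays and at 24 h, against 51.6% and 51.4% of all genes. With 6 arrays 11 were higher, against 57.2%, while Des differed by -0.57 and Tagln, chosen after its values were seen, by -0.16. Every IQ1 array was above every control for 10 of the 13 with 5 arrays and for 7 with 6 arrays. This arrangement was shown by 13.1% and 8.33% of all genes. None passed limma's test, and 4 had an unadjusted p under 0.05 with 5 arrays, against 4.24% of all genes as higher. The median difference was 0.74 with 6 arrays, 0.42 with 5 arrays and 1.17 at 24 h, where 9 of the 13 were above 1, against 5.64% of all genes. The summed intensity of the list, as log2, was 14.1 to 14.6 on the control arrays and 14.4 to 14.9 on the IQ1 arrays at 9 h, and 14.1 in control and 15.2 in IQ1 lungs at 24 h. Control replicate 2 gave the highest control sum, and without it the controls were at 14.09 and 14.20. Myl9, the smooth muscle regulatory light chain, read 9.75, 8.82 and 9.74 on the control arrays and 11.15, 10.83 and 11.25 on the IQ1 arrays, with a difference of 1.64 with 6 arrays, 1.33 (SE 0.23, limma adjusted p = 0.239) with 5 arrays and 1.71 at 24 h. In the same order, Cnn1, a calponin of contractile smooth muscle, differed by 1.64, 1.12 and 1.88, and Myocd, the cofactor of serum response factor, by 1.56, 1.46 and 1.71. Myocd was below the lower quartile of the spots on 2 of the 7 arrays, control replicates 1 and 3. Among the other actins, Actg2 differed by 0.93, 0.70 and 1.48, Acta2, chosen after its values were seen, by 0.18, 0.18 and 1.10, and the skeletal Acta1 by -0.55, 0.58 and 1.90. The part of smooth muscle in the Actc1 and Myl4 values was not tested.

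Of 17 skeletal muscle genes 8 were higher with 6 arrays and 9 with 5 arrays, against 57.2% and 51.6% of all genes. Their median differences were -0.07 and 0.09, and the median at 24 h was 0.27. Myog, which drives the fusion and differentiation of myoblasts, read 8.54, 4.38 and 8.60 on the control arrays and 8.497, 8.88 and 8.96 on the IQ1 arrays, then 6.62 in control and 6.65 in IQ1 lungs at 24 h. Its difference at 9 h was 1.61 with 6 arrays and 0.21 with 5 arrays. Myod1 stayed between 11.81 and 12.91 on the 7 arrays, with both ends on IQ1 arrays, and differed by 0.40 and -0.05.

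Lists of other cell types were read on the same arrays. All 12 genes of the endothelium and endocardium were lower with IQ1 on the 5 arrays, against 48.4% of all genes. With 6 arrays 10 were lower, against 42.8%, and 2 were higher. The median difference was -1.60 with 6 arrays, -2.27 with 5 arrays and -2.05 at 24 h. With 5 arrays 1 of them passed limma's test: Sox7, an endothelial factor, with 7.52, 7.95 and 7.33 on the control arrays and 4.16, 4.17 and 4.12 on the IQ1 arrays (adjusted p = 0.0408 with 5 arrays, 0.627 with 6). The summed level of this list was 12.95 to 13.05 on the control arrays and 12.00 to 12.60 on the IQ1 arrays at 9 h, and 13.31 and 12.89 at 24 h. The median difference with 6 and with 5 arrays was 0.64 and 0.06 for 8 measured erythroid genes, 0.14 and -0.08 for 10 genes of the lung epithelium, 0.19 and -0.21 for 7 genes of the lung mesenchyme, and -0.41 and 0.08 for 6 liver genes. The part of these cell types in the values of the 10 cardiac genes was not tested.

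**Figure D4:**
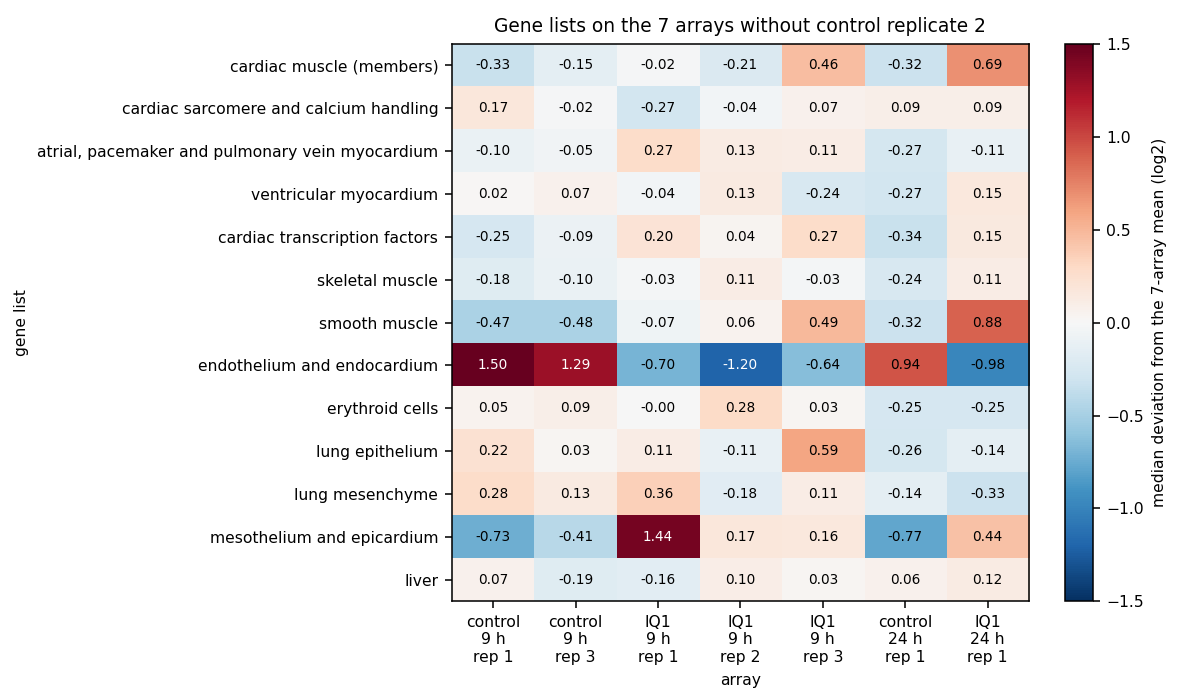
Median deviation of each gene list from its own mean over the 7 arrays, on the log2 scale, by list (rows) and array (columns), with red above and blue below the mean. The 10 cardiac genes reached 0.69 in the IQ1 pool at 24 h, where smooth muscle reached 0.88, while the other cardiac sarcomere genes stayed at 0.09 and ventricular genes at 0.15.

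Genes outside the 10 whose levels most resembled the mean of the 10, each centred on its own mean, included smooth muscle genes. Over the 7 arrays and among 1845 genes with a mean above the median gene and an SD of at least 0.5, the highest correlations were those of Synpo2 with 0.957, Actg2 with 0.949, Psd with 0.946, Cldn10 with 0.936, Cnn1 with 0.921, Slc30a1 with 0.913 and Prss8 with 0.904. Slc24a3 (0.893), Mpzl2 (0.891) and Enpp1 (0.888) completed the first 10. Synpo2, Actg2 and Cnn1 belong to the smooth muscle list, and no gene of the other cardiac lists was among the 10. The filter on the mean kept dim genes out, among them Actn2, Csrp3, Myl2, Myl3 and Sln. Of the 10 cardiac genes themselves, 4 had a mean above the median gene. The share of each list among the 1845 genes was not counted, so nothing is read from the absence of cardiac genes. The mean of the 10 cardiac genes was -0.28 and -0.20 on control replicates 1 and 3, 0.09, -0.19 and 0.39 on the IQ1 arrays at 9 h, -0.39 in the control pool and 0.58 in the IQ1 pool at 24 h. IQ1 replicate 2 thus lay next to control replicate 3.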

How the data were processed

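RNA of whole cultured lungs was measured on 1-color Agilent oligonucleotide arrays. The deposited values are log2 intensities: per the methods, the authors amplified low-yield RNA to cDNA, corrected spot signals for background by NormExp, and quantile-normalized them with limma. This step makes every difference relative to the rest of the array, and amplification adds error to weak spots. Spot flags were not used, and the number of arrays limits the precision.

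Of 62976 spots, 43941 were given a gene name through a RefSeq table (33708 by accession, 9763 by symbol, 463 by synonym and 7 as listed). A missing value removed 8 of them, and the brightest spot represented each gene. Differences at 9 h were fitted by the two-sided moderated test of limma 3.58.1 (R 4.3.3) and adjusted over all 24304 genes by the Benjamini-Hochberg method with a threshold of 0.05. The fit was tested on simulated data. The 24 h arrays have no replicate and were not tested.

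The 10 genes and all lists were chosen with earlier results of these data known. Named were all 10 genes, up to 4 genes of each list with the largest span over 7 arrays, the chamber markers Myl2, Myl3 and Sln, the skeletal markers Myod1 and Myog, and the 10 genes most like the mean profile. Acta2, Tagln, Tnnc1 and Tnni1 fall outside this rule. Smyd1, Fabp3, Cox6a2 and Cox7a1 are named only as members of their lists. The lists were cardiac sarcomere and calcium handling, atrial, pacemaker and pulmonary vein myocardium, ventricular myocardium, cardiac transcription factors, skeletal muscle, smooth muscle, endothelium, erythroid cells, lung epithelium, lung mesenchyme, mesothelium and liver. Alternatives were leaving out arrays, array weights, another variance prior, a filter on dim genes, the mean over spots, cyclic loess, a replicate block, an unmoderated test and another choice of spot.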

Additional observations from a re-analysis of the deposited data

Results flagged for a closer look

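Nppa differed in direction between the times. On the brightest spot all 3 IQ1 arrays at 9 h were below control replicates 1 and 3, with a difference of -0.50, whereas at 24 h the IQ1 pool was above the control pool by 0.17. With all 6 arrays the difference at 9 h was 0.83, because control replicate 2 read 3.82. The difference between the times was not tested, since 24 h had 1 array for each condition, and the second Nppa spot was lower with IQ1 at both times.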

How the results depend on the processing

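None of the 10 genes passed the threshold under any setting, and the smallest adjusted p among them was 0.0881, for Ryr2 with array weights. Among all genes, 0 were called with 6 arrays and 0 to 3 when 1 array, or both control replicate 2 and IQ1 replicate 1, was left out, 3 of them without control replicate 2. Array weights gave 233, the 5 arrays with the filter on dim genes 31, and the 5 arrays with cyclic loess 3. The median difference of the 10 genes, 0.52, was 0.25 to 0.64 with arrays left out and 0.015 for the mean over spots, which also gave 3 in place of 5 genes above 1 at 24 h. At 24 h the mean over spots also turned Tnni3 to -0.17 and Nppa to -0.08, and Myh7 stayed below 0 with -0.20. Of the 10 genes most like the mean profile, 3 were shared with all 8 arrays and 5 with Spearman's measure. Actg2, Cnn1 and Synpo2 ranked 1, 3 and 7 with all 8 arrays, and 4, 48 and 65 with Spearman's measure. A replicate block called 0 genes, and same-numbered arrays did not deviate together (correlations 0.0038, -0.0036 and 0.015). The deviations of the controls were taken from a mean that held the outlying control replicate 2. This check therefore cannot decide whether the other arrays were paired, and the arrays were treated as unpaired. Actc1, Myl4, Ryr2 and Nkx2-5 stayed above 0 in all 70 values under alternatives at 9 h, but not all of these could move. A replicate block, another variance prior, an unmoderated test, 1 fit of all 8 arrays and the filter repeat the difference of the same arrays. So does the choice of spot over 7 arrays for these genes, and the mean over spots for Actc1 and Nkx2-5, which have 1 spot. Cyclic loess with 6 arrays lowered the median of the 10 genes to 0.16 and that of all genes from 0.16 to 0.024, and gave 0.12 for Myl4, 0.30 for Ryr2, 1.13 for Actc1 and 0.99 for Nkx2-5. With arrays left out, the difference ran from -0.62 to 0.56 for Myh6, -0.57 to 0.79 for Myh7, -1.20 to 0.56 for Myl7, -0.56 to 0.42 for Tnnt2, -0.048 to 0.56 for Tnni3 and -0.50 to 1.53 for Nppa. Without both control replicate 2 and IQ1 replicate 1 it was 0.56, -0.46, 0.29, 0.06, -0.027 and -0.40 for these genes in turn. Without control replicate 2 and with cyclic loess it was 0.32, -0.56, 0.56, 0.43, -0.039 and -0.49. Array weights turned Myh6 to 0.57, Myh7 to -0.50, Myl7 to 0.58, Tnnt2 to 0.37 and Nppa to -0.45. The mean over spots turned Myh7 to -0.48, Tnnt2 to 0.29, Tnni3 to -1.04 and Nppa to -0.26, and the 5 arrays with the filter gave -0.50 for Nppa. The cause was not tested beyond the arrays and spots left out. The pair of arrays left out, the 5 arrays with cyclic loess, the test of every spot and the choice of spot over 7 arrays were added after seeing the data.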
